A study of Homo sapiens with 5 samples.

Results

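The genes described here encode the ADAM, ADAMTS, ADAMTSL, MMP and TIMP families, followed in IMR32, an established human neuroblastoma cell line. They were taken as every gene with a probe set annotated to a single symbol of the form ADAM, ADAMTS, ADAMTSL, MMP or TIMP followed directly by a number, which gave 78 of the 19775 named genes on the Affymetrix U133 Plus 2.0 array. Of the 78, 71 were genes of the families themselves and 7 were antisense, opposite-strand or divergent transcripts named after one of them. All cells carried a stably integrated short hairpin RNA against MEIS1, a TALE-class homeobox factor, that doxycycline switches on. The hairpin is described as specific for the MEIS1b isoform, and whether the line is 1 clone is not given in the sources used here. A single array was run at 0 h without doxycycline and at each of 24, 48, 96 and 192 h with doxycycline, so no time point has a replicate. The series has no array of cells with doxycycline but without the hairpin, so time in culture, doxycycline and the hairpin cannot be told apart.

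ADAM proteins are membrane-anchored metalloproteinases that cut the extracellular parts of other membrane proteins, and several members have lost the catalytic residues and act in cell adhesion. ADAMTS proteases are secreted relatives that cut proteoglycans, procollagens and von Willebrand factor, and the ADAMTSL proteins share their thrombospondin repeats but have no protease domain. MMPs cut collagens and other matrix proteins, and TIMPs inhibit MMPs and some ADAM and ADAMTS enzymes. In neural tissue these enzymes are known for shedding Notch and adhesion molecules and for remodelling the chondroitin sulphate proteoglycans around axons.

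Of 7 measured sympathoadrenal markers of neuroblastoma 6 had a mean signal above 17.9, the filter used for all tests, with MYCN at a mean MAS5 signal of 4143. The exception, TH, averaged 10.0, with 2.1, 5.5, 4.2, 9.9 and 28.5 at 0, 24, 48, 96 and 192 h. CHGB, a secretory granule protein on this list, rose (183.9 at 192 h against 74.3 at 0 h, fitted log2 change 1.32 ± 0.20 SE, limma adjusted p = 0.00404). The summed signal of the 7 markers was 8536 at 192 h against 8063 at 0 h. It is mostly that of MYCN and GATA3, which read 4248 and 2793 at 0 h. Marker lists of Schwann cells (0 of 2) and blood (0 of 3) had no member above the filter, and the endothelial, epithelial and fibroblast lists had 1 of 3 each. On the fibroblast list PDGFRA, a growth factor receptor, was at 131.6 at 192 h against 457.3 at 0 h (fitted log2 change -1.85 ± 0.18 SE, limma adjusted p = 2.80e-04), while the matrix genes DCN and LUM had means of 14.7 and 9.68, below the filter. The summed signal of those 3 fibroblast markers, 149.8 at 192 h against 484.7 at 0 h, is therefore mostly that of PDGFRA. MEIS1, the targeted gene, read 786.6 at 192 h against 1052 at 0 h, and its fitted change of -0.33 ± 0.14 (SE) did not pass (limma adjusted p = 0.251).

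Few of these genes followed the time of induction, and those that did belonged to the ADAMTS and ADAMTSL families. ADAMTS9 fell, and ADAMTS17 and ADAMTSL1 rose. Of the 78 genes, 30 averaged 17.9 or more over the arrays, a cut placed at the median of every signal measured, and entered the test, and the other 48 did not. For the 11944 genes that passed this filter, limma fitted a line through log2(signal + 4.7) against the order of the time points, and the change reported is that line's rise or fall over 4 steps. Of the 30 tested members 3 had a Benjamini-Hochberg adjusted p under 0.05, against 3.47% of all genes tested. In the upward direction there were 2 members, against 2.02% of all genes, and in the downward direction 1, against 1.46%. The median fitted log2 change was 0.04 over the tested members and 0.003 over all genes. With 1 array at each time, a p-value here weighs the slope against the scatter of the 5 arrays about the line. In limma that scatter is pooled with that of all genes tested, and it is not a spread between replicates. In bulk RNA, fewer cells of a kind and less RNA per cell cannot be told apart.

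**Figure D1:**
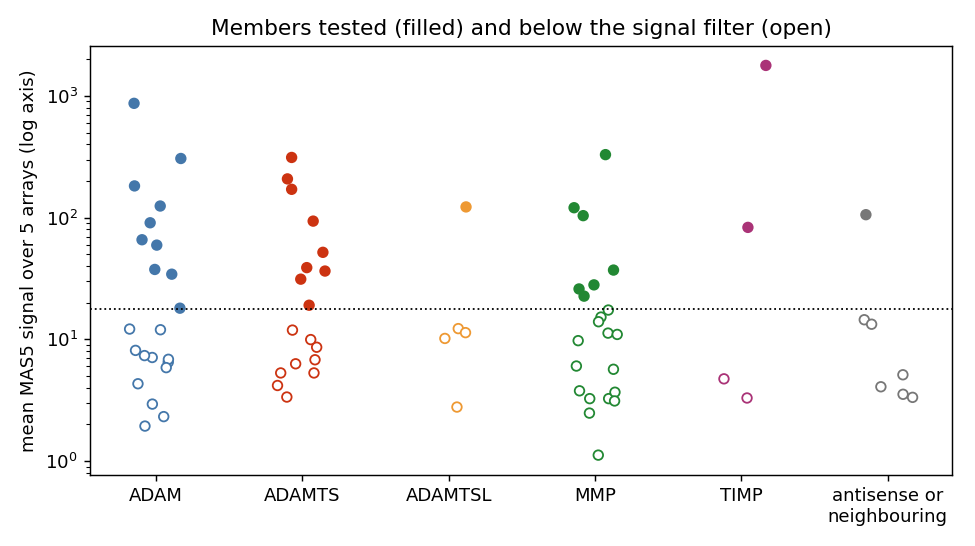
Mean MAS5 signal over the 5 arrays (log axis) of the brightest probe set of each of the 78 members, by family. The dotted line is the filter at 17.9; the 30 filled points above it were tested and the 48 open points were not.

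ADAMTS9, a secreted protease that cuts the proteoglycans versican and aggrecan, had the largest fitted change of the tested members. Its brightest probe set read 381.5, 246.2, 205.8, 133.9 and 73.3 at 0, 24, 48, 96 and 192 h. The signal was thus lower at every time point than at the one before. This order was seen in no other tested member, and in 2.18% of all genes tested. The fitted log2 change was -2.19 ± 0.20 (SE; adjusted p = 2.12e-04 in limma). The 192 h level was 20.2% of the 0 h level on the scale with the offset. The log2 steps were -0.62, -0.25, -0.60 and -0.83, so the decrease was present at 24 h and went on to the last array. Its second probe set read 204.9, 134.6, 98.1, 54.8 and 43.0, and the third read 51.8, 31.7, 31.5, 23.4 and 23.8. All 3 probe sets above the filter had negative fitted changes, between -2.20 and -0.94. The fall of ADAMTS9 went along with that of PDGFRA on the fibroblast marker list, whose other genes DCN and LUM had means below the filter. Any part of such cells in the fall of ADAMTS9 was not tested.

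ADAMTS17, whose product acts on fibrillin microfibrils and is mutated in a Weill-Marchesani-like syndrome, rose. It read 51.0, 62.5, 69.3, 111.8 and 173.7 at 0, 24, 48, 96 and 192 h. It was the single tested member with a higher signal at every step, an order found in 2.33% of all genes tested. The fitted log2 change was 1.66 ± 0.26 (SE, limma adjusted p = 0.00457), and the 192 h level was 3.20 times the 0 h level. The larger steps were the last 2, at 0.65 and 0.61 on the log2 scale. Its other probe sets read 40.4, 26.9, 40.3, 59.6 and 107.7, and 17.8, 13.6, 13.3, 26.0 and 34.9, so both dipped at 24 h before they passed the 0 h signal. Without the 192 h array the fitted change was 1.33 and did not pass (limma adjusted p = 0.0825). With all 3 probe sets averaged it was 1.36 and did not pass either (limma adjusted p = 0.0564). CHGB on the neuroblastoma marker list rose over the same arrays as ADAMTS17, ADAMTSL1 and L1CAM. The other tested markers of that list did not pass. Fitted log2 changes were 0.014 for MYCN, -0.008 for DBH and 0.14 for GATA3. Those of HAND2 and PHOX2A were positive (limma adjusted p = 0.108 and 0.0629). At 24 h CHGB lay above 0 h (93.1 against 74.3), as did ADAMTS17 and L1CAM, while ADAMTSL1 lay below it (70.9 against 89.9). Any part of CHGB in the increase of these genes was not tested.

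ADAMTSL1, a matrix protein also called punctin that resembles the ADAMTS proteases but cannot cut, rose as well. Its signals were 89.9, 70.9, 108.9, 141.6 and 201.2 at 0, 24, 48, 96 and 192 h. The 24 h array lay below 0 h, and the 3 later arrays lay above it in increasing order. The fitted log2 change was 1.28 ± 0.26 (SE, limma adjusted p = 0.0201). A second probe set read 27.7, 27.2, 54.1, 73.5 and 96.8, with a fitted change of 1.84, and all 3 probe sets above the filter had positive changes. ADAMTSL1 did not pass without the 192 h array (0.99, limma adjusted p = 0.189) or when the fit included the level of the poly-A spike-in controls (1.24, limma adjusted p = 0.110), which was 0.61 lower on the log2 scale at 96 h than at 0 h.

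**Figure D2:**
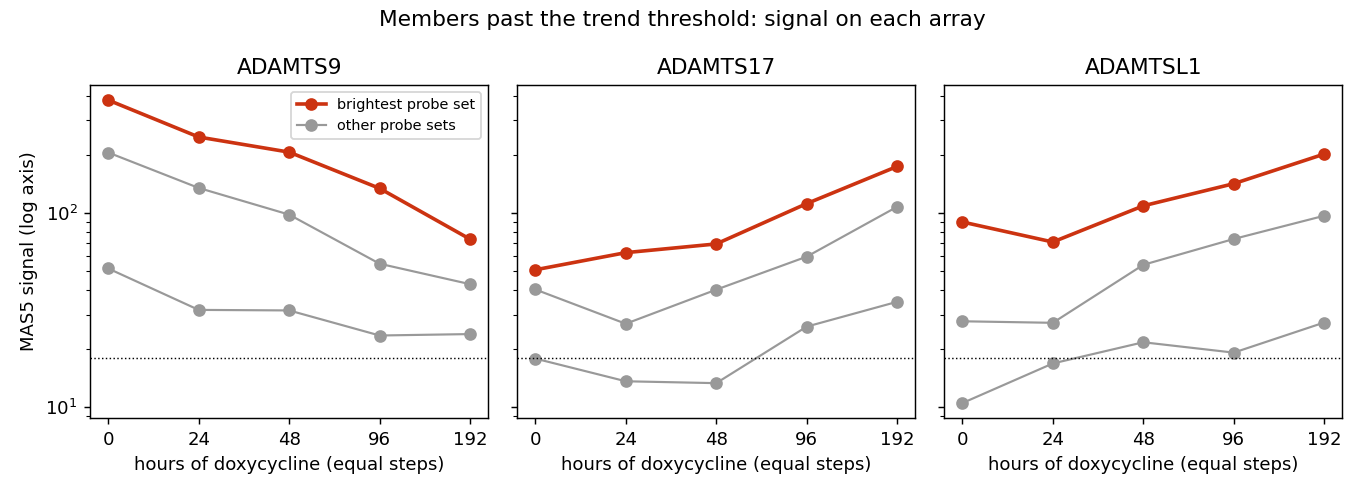
MAS5 signal (log axis) on the arrays at 0, 24, 48, 96 and 192 h for the 3 members past the threshold, with the brightest probe set in red, the others above the filter in grey and the filter at 17.9 as a dotted line. ADAMTS9 read 73.3 at 192 h against 381.5 at 0 h, ADAMTS17 173.7 against 51.0 and ADAMTSL1 201.2 against 89.9.

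The upstream sequences of the 2 genes that rose are shown because MEIS factors bind a core of letters TGACAG, which was searched on both strands (TGACAG or CTGTCA) in the 250 bases before the RefSeq start, in build GRCh38.p14. The window of ADAMTS12 is shown beside them as the single window with a match among the 17 tested members that had one. RefSeq windows were found for 45 of the 78 members, and ADAMTS9, the gene that fell, was not among them. The core was in 4 of these 45 (8.89%) and in 13.1% of 27305 RefSeq windows of the same length, and it was in neither gene that rose. The median GC content was 68.4% in the member windows and 58% in all windows, and its effect on these shares was not tested. Capitals mark the match, which begins 92 bases before the ADAMTS12 start. The windows are chr15:100341976-100342225 on the minus strand for ADAMTS17, chr9:18473903-18474152 on the plus strand for ADAMTSL1, at a start inside the annotated gene, and chr5:33891991-33892240 on the minus strand for ADAMTS12. A match describes letters in a window and not binding.
ADAMTS17: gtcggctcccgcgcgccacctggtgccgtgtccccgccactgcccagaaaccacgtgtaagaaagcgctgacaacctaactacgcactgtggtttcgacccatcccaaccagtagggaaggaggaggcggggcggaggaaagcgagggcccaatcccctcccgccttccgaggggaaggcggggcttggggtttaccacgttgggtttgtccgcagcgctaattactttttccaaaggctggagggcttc
ADAMTSL1: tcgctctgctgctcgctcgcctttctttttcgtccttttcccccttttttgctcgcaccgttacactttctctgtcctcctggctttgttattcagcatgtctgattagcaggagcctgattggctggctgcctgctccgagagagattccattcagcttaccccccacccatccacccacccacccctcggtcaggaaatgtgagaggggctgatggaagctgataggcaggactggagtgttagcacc
ADAMTS12: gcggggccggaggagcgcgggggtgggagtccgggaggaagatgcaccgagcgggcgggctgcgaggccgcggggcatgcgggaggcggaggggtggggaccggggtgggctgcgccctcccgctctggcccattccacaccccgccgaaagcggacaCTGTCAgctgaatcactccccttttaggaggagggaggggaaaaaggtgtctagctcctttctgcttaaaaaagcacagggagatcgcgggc

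The other 7 tested ADAMTS genes did not pass. Of all 9 tested ADAMTS genes 4 had an unadjusted p under 0.05 in the limma fit (ADAMTS5, ADAMTS9, ADAMTS12 and ADAMTS17). Over the 30 tested members the count was 7, against 17% of all genes tested. ADAMTS12, which cuts cartilage oligomeric matrix protein, came nearest in size, at a fitted log2 change of -1.01 ± 0.32 (SE). Its signal was 66.0, 67.0, 46.0, 52.2 and 28.3 at the 5 times, so the lowest value was at 192 h and the 24 h array matched 0 h closely. ADAMTS5, an aggrecan-cutting protease, read 314.7, 188.6, 263.3, 373.1 and 421.7. It lay below its 0 h signal at 24 and 48 h and above it at 96 and 192 h, and all 4 of its probe sets were lowest at 24 h. The fitted change was 0.72 ± 0.29 (SE, limma adjusted p = 0.225), and without the 0 h array it was 1.57 and passed (limma adjusted p = 0.00667). ADAMTS1, the neighbouring gene on chromosome 21 and a versican-cutting protease, read 156.7, 166.4, 139.2, 183.8 and 208.6, with a fitted change of 0.38 ± 0.20 (SE, limma adjusted p = 0.384). Its other probe set had the opposite sign, at -0.19. The fitted change was 0.74 for ADAMTS13, the protease of von Willebrand factor, -0.09 for ADAMTS20, the closest relative of ADAMTS9, -0.15 for the aggrecan-cutting ADAMTS4 and -0.33 for the procollagen protease ADAMTS14.

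Of the 10 tested ADAM genes 0 passed in the limma fit, and 1 had an unadjusted p under 0.05, against 17% of all genes tested. That gene was ADAM9, a sheddase, which read 340.7, 351.4, 341.2, 267.7 and 230.0 at 0, 24, 48, 96 and 192 h. The first 3 arrays lay close together and the last 2 lay lower, and the log2 change fitted was -0.60 ± 0.17 (SE, limma adjusted p = 0.0766). A dimmer ADAM9 probe set had a fitted change of -0.20. ADAM10, the main sheddase of Notch and the alpha-secretase of APP, read 777.7, 884.8, 948.7, 934.5 and 800.3. Its middle arrays were the higher ones, and its fitted change was 0.06 ± 0.15 (SE). ADAM17, the sheddase of TNF and of EGF receptor ligands, read 174.8, 187.5, 197.1, 173.1 and 178.8, with a fitted change of -0.02 ± 0.17 (SE). The other probe sets had fitted changes of 0.21 and -0.16 for ADAM10 and of -0.34 and 0.02 for ADAM17. For both sheddases the 192 h signal was within 3% of the 0 h signal on the offset scale, at 102.9% for ADAM10 and 102.2% for ADAM17.

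The 3 ADAM genes without catalytic activity that are known from neurons had positive fitted changes, none of which passed. ADAM23, an adhesion protein and LGI1 partner, read 52.3, 45.0, 71.6, 59.6 and 68.9, and its log2 change was fitted at 0.44 ± 0.29 (SE, limma adjusted p = 0.497), with positive changes in all 3 of its probe sets above the filter. ADAM22, the synaptic receptor of LGI1, had a fitted change of 0.28, with 4 of 6 probe sets positive. ADAM11 also had 0.28. Among the remaining catalytic members the fitted change was -0.05 for ADAM15, -0.20 for the neuregulin sheddase ADAM19, -0.27 for ADAM12 and -0.39 for ADAM33. The other probe sets above the filter were lower, at -0.52 for ADAM15 and at -0.98 and -0.99 for ADAM12.

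**Figure D3:**
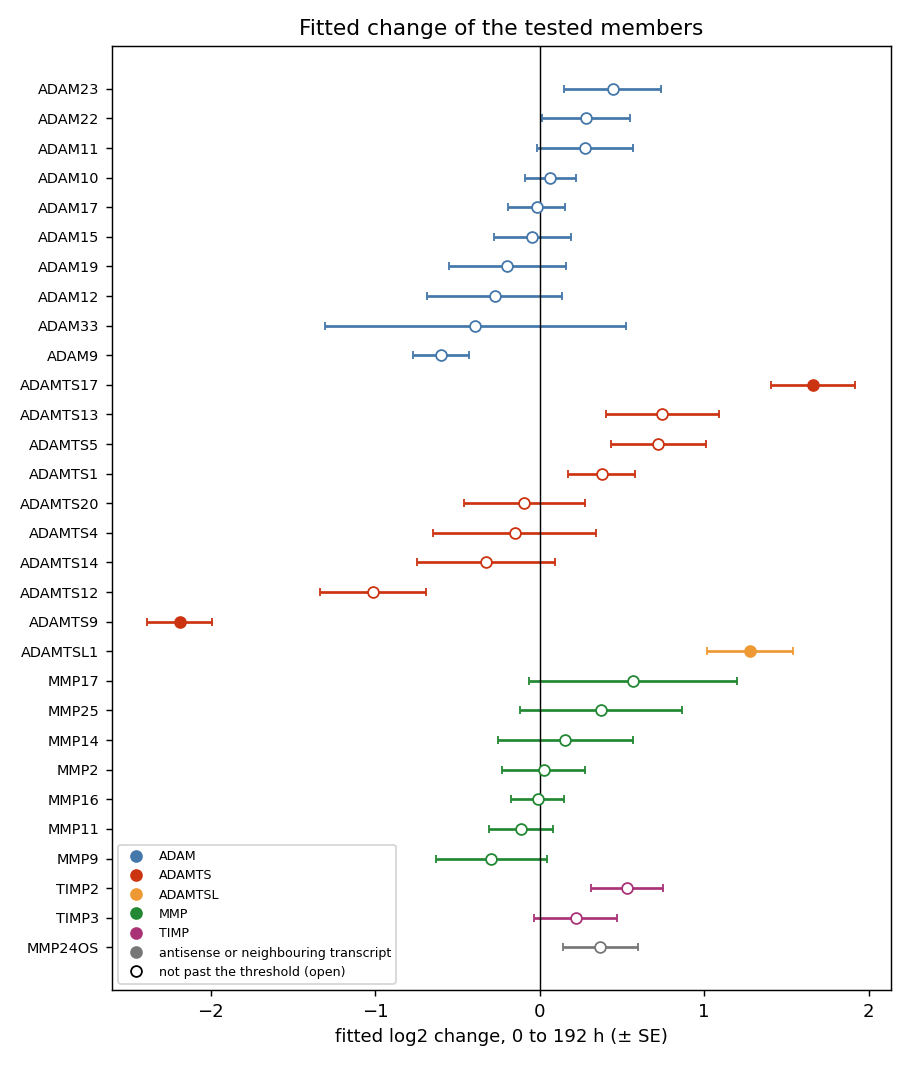
Fitted log2 change over the time course with its standard error for the 30 tested members, by family, on the log2(signal + 4.7) scale. Filled points passed the threshold: ADAMTS9 at -2.19, ADAMTS17 at 1.66 and ADAMTSL1 at 1.28; the open points did not.

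No MMP gene passed the test. Of the 7 tested 0 passed in the limma fit, 0 had an unadjusted p under 0.05, and their fitted log2 changes ran from -0.29 to 0.57. MMP16, a membrane-type MMP of neural tissue, read 349.6, 333.6, 291.1, 319.4 and 353.2 at 0, 24, 48, 96 and 192 h. Its fitted change was -0.01 ± 0.16 (SE), with the first and last arrays at nearly the same signal. MMP2, the gelatinase that membrane-type MMPs activate, read 104.0, 118.3, 82.5, 97.2 and 117.3, a fitted change of 0.02 ± 0.25 (SE). MMP11, also called stromelysin-3, read 130, 115.1, 123.5, 119.5 and 115.2, a fitted change of -0.11 ± 0.20 (SE). All 4 induced arrays of MMP11 were below 0 h, by 0.17 at most on the log2 scale.

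MMP17, a membrane-type MMP held by a lipid anchor, read 31.6, 8.0, 13.7, 27.3 and 32.7. It was low at 24 and 48 h and back at the 0 h signal by 192 h, and the log2 change fitted was 0.57 ± 0.63 (SE, limma adjusted p = 0.730). MMP25, another lipid-anchored member, read 28.7, 21.9, 13.4, 30.3 and 35.5, and its lowest array was at 48 h. Its 2 probe sets disagreed, with fitted changes of 0.37 and -1.06. The second read 23.2, 19.1, 35.2, 4.2 and 13.5, so it was highest at 48 h, where the brightest was lowest. The fitted change was 0.16 for MMP14, the main activator of MMP2, and -0.29 for the gelatinase MMP9. Of the 6 membrane-type MMP genes 4 were tested, and MMP15 and MMP24 had means below the filter. The brightest MMP24 probe set read 12.3, 18.2, 6.7, 20.2 and 18.8, lowest at 48 h. Its other probe set, also below the filter on average, read 5.7, 1.8, 22.3, 14.3 and 27.2. The 9 neighbouring MMP genes on chromosome 11, which include the collagenases MMP1, MMP8 and MMP13 and the stromelysins MMP3 and MMP10, all had means below the filter, between 1.12 and 14.0.

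Of the inhibitors, TIMP2 and TIMP3 were tested and neither passed, though TIMP2 had an unadjusted p under 0.05 (1 of 2, against 17% of all genes). TIMP2, which inhibits MMPs and also helps MMP14 to activate MMP2, read 1263, 1713, 1843, 2388 and 1696 at 0, 24, 48, 96 and 192 h. All 4 induced arrays were above 0 h, with the highest at 96 h and a lower one at 192 h. The fitted log2 change was 0.53 ± 0.22 (SE, limma adjusted p = 0.245). Without the 192 h array it was 1.14 and passed (limma adjusted p = 0.00521). A second probe set gave the same order, at 903.4, 1244, 1246, 1499 and 1190. The third read 237.9, 311.2, 282.7, 340.6 and 243.4, also highest at 96 h but with a fitted change of 0.08. TIMP3, which binds the matrix and inhibits ADAM17 and ADAMTS proteases, read 76.0, 75.3, 97.0, 73.7 and 93.9, with a fitted change of 0.22 ± 0.25 (SE). TIMP1 had a mean signal of 4.74 and TIMP4 of 3.30, both below the filter.

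Set against the 0 h array without a test, the members that differed by at least 1.5-fold were not all the same at each time. At 24 h 0 of 30 were higher, against 2.80% of all genes, and 4 were lower (ADAMTS5, ADAMTS9, ADAMTS14 and MMP17), against 4.24%. At 48 h ADAMTS13 alone was higher, against 4.19%, and ADAMTS9, MMP17 and MMP25 were lower, against 3.78%. At 96 h 4 were higher (ADAM33, ADAMTS17, ADAMTSL1 and TIMP2), against 7.46%, and ADAMTS9 alone was lower, against 5.67%. At 192 h ADAMTS13, ADAMTS17 and ADAMTSL1 were higher, against 6.95%, and ADAM33, ADAMTS9, ADAMTS12 and ADAMTS14 were lower, against 6.41%. ADAMTS9 was thus the member found below this limit at each induced time. ADAM33 read 49.2 at 96 h and lay below the filter on every other array. Its mean of 18.0 therefore passed the filter through the 96 h signal alone, the signal that also counts it as higher at 96 h. Its count as lower at 192 h sets 2.0 against 12.5 at 0 h, both below the filter. The median log2 ratio of the members was -0.13, -0.06, -0.01 and 0.04 at the 4 times, and that of all genes stayed between -0.01 and 0.02. There is no replicate check on these ratios.

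**Figure D4:**
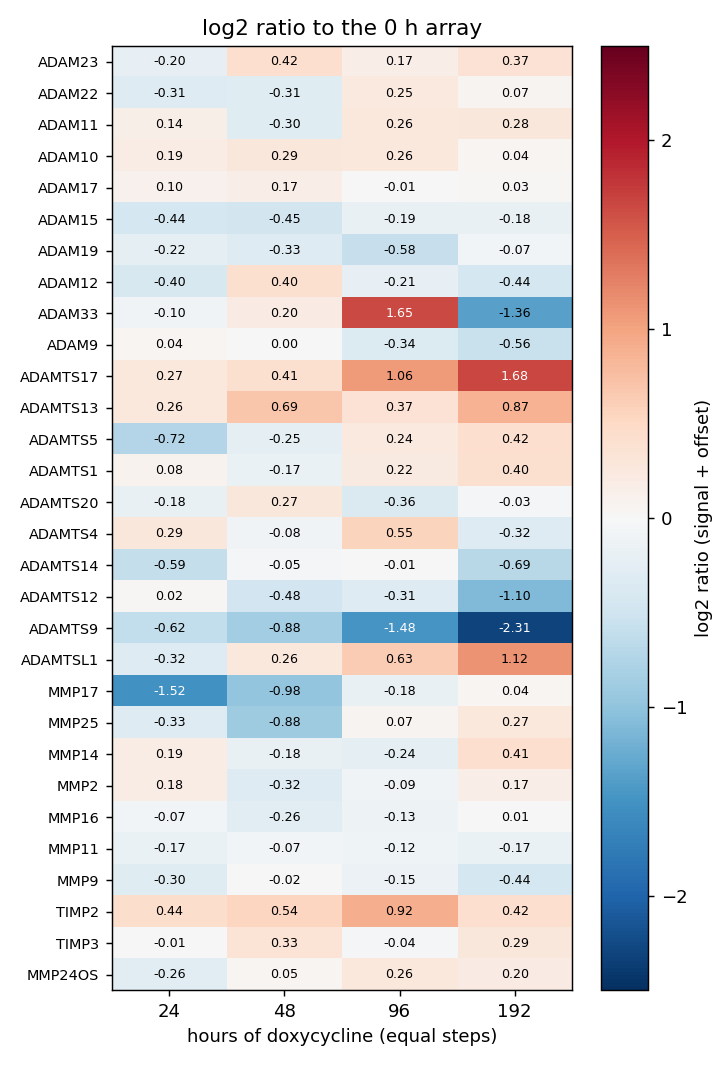
Log2 ratio of each induced array to the 0 h array, on the log2(signal + 4.7) scale, for the 30 tested members at 24, 48, 96 and 192 h. ADAMTS9 goes down to -2.31 and ADAMTS17 up to 1.68 at 192 h, and MMP17 is lowest at 24 h (-1.52).

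The 48 members below the filter had mean signals between 1.12 and 17.4. They were 12 ADAM genes, 9 ADAMTS genes, 4 ADAMTSL genes, 15 MMP genes, 2 TIMP genes and 6 of the antisense or divergent transcripts. They included all 4 pseudogenes (ADAM3A, ADAM3B, ADAM5 and ADAM6) and the sperm proteins ADAM2 and ADAM18. At the filter's edge ADAM33 (18.0) and ADAMTS4 (19.1) were just inside and MMP28 (17.4) and MMP24 (15.2) just outside. The single tested transcript of the last kind, MMP24OS, read 101.2, 83.8, 104.7, 121.9 and 117.2, and its log2 change was fitted at 0.37 ± 0.23 (SE, limma adjusted p = 0.455). The antisense transcript ADAMTS9-AS2 read 9.8, 14.6, 17.5, 17.3 and 13.3 in its brightest probe set, which is below the filter.

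Of 22 listed regulators of these enzymes 18 were tested, 1 rose and 0 fell, against 2.02% and 1.46% of all genes. Their median fitted log2 change was -0.04. The list was written with earlier results on these arrays known. The one that rose was SPOCK3, a testican proteoglycan that can inhibit membrane-type MMPs, at 82.1 at 192 h against 30.8 at 0 h (1.38 ± 0.33 SE, limma adjusted p = 0.0401). It did not pass without the 0, 24, 96 or 192 h array, where the fitted change ran from 1.09 to 1.87. Its relative SPOCK1 read 61.9 at 192 h against 90.1 at 0 h, with a fitted change of -0.61 that did not pass (limma adjusted p = 0.266). RECK, a membrane inhibitor of MMPs, had a fitted change of 0.02 and FURIN, which removes the pro-domain of many of these proteases, -0.40. The tetraspanins TSPAN5, TSPAN14, TSPAN15, TSPAN17 and TSPAN33, which carry ADAM10 to the cell surface, had fitted changes from -0.38 to 0.51, and none passed. Of the 9 other metzincins, related proteases outside the name rule, BMP1 (0.26) and PAPPA2 (-0.20) were tested and neither passed.

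Of 29 listed substrates and partners 19 were tested, 1 rose and 5 fell, against 2.02% and 1.46% of all genes. Their median fitted log2 change was -0.38, against 0.003 over all genes. This list too was written with earlier results on these arrays known, so the counts describe it and do not test it. Those that fell were the collagen genes COL1A1 (-2.31) and COL2A1 (-1.47), the proteoglycan gene VCAN (-1.12), the fibrillin gene FBN2 (-1.07) and the basement membrane gene NID1 (-0.85). Other matrix genes of the list did not pass, with -0.54 for COL4A1, -0.49 for COL3A1 and -0.20 for FN1. VCAN, a substrate of ADAMTS9, ADAMTS1 and ADAMTS5, read 295.9, 257.6, 224.7, 163.5 and 137.3 at 0, 24, 48, 96 and 192 h, so its signal and that of ADAMTS9 were both lower at each successive time. NID1 read 289.7, 275.8, 238.3, 181.0 and 167.9, with the same order. All 5 were below 0 h at 48, 96 and 192 h, as was PDGFRA, the 1 gene of 3 on the fibroblast list with a mean above the filter. The part of PDGFRA in this was not tested. At 24 h PDGFRA was below 0 h, while FBN2 (328.6 against 262.4) and COL1A1 (592 against 584.4) were not. L1CAM, a neuronal adhesion molecule that ADAM10 and ADAM17 shed, rose: it read 103.1, 116.1, 116.3, 239.8 and 266.4, a fitted change of 1.47 ± 0.25 (SE, limma adjusted p = 0.00811). The other shed proteins (APP, CDH2, HBEGF, NCAM1, NOTCH1, NOTCH3 and PRNP) did not pass, with fitted changes from -0.44 for HBEGF to 0.34 for NCAM1. Neither did the relatives of VCAN that ADAMTS4 and ADAMTS5 cut, with -0.71 for ACAN, -0.28 for BCAN and -0.06 for NCAN. Without the 192 h array 2 of these genes fell (COL1A1 and VCAN) and 0 rose. FBN2 did not pass without the 24, 96 or 192 h array, NID1 without the 0 or 192 h array, and COL2A1 and L1CAM without the 192 h array.

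**Figure D5:**
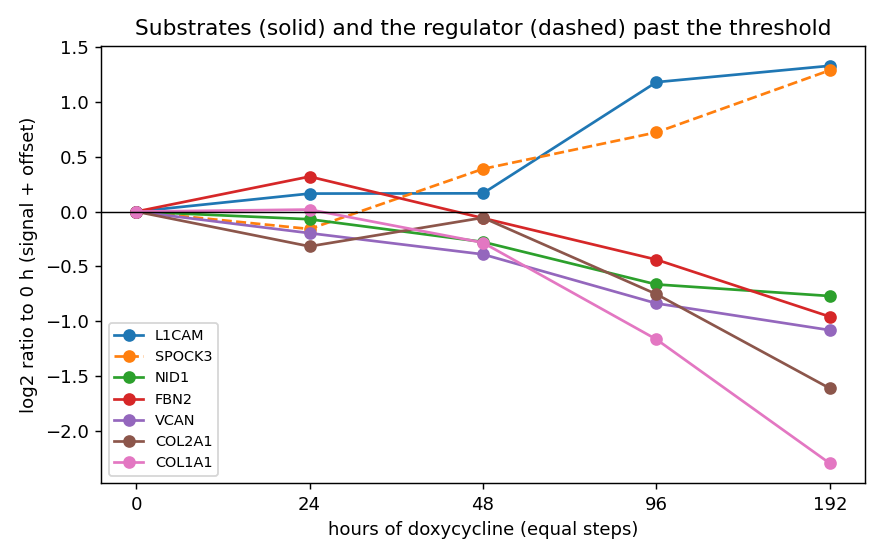
Log2 ratio to the 0 h array, on the log2(signal + 4.7) scale, at 0, 24, 48, 96 and 192 h for the 6 substrates (solid lines) and the regulator SPOCK3 (dashed) past the threshold. L1CAM and SPOCK3 end above 0 and COL1A1, COL2A1, VCAN, FBN2 and NID1 end below it.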

How the data were processed

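The deposited values were taken as log2 of the MAS5 signal on each of 5 arrays. MAS5 and GCOS are named per the submitters' processing notes, with no versions. The log2 step and a floor at a signal of 1 were read from the deposited values, since 100% of the values turned back to signals came within 0.01 of a whole number of 0.1 steps. The authors had scaled each array as a whole: the mean after trimming was close to 100.02 on all 5, so no scaling was added. Between 5.34% and 8.15% of 54675 probe sets lay at the floor. Dim MAS5 signals are noisy, since mismatch probes are subtracted, and detection calls were not analysed here. The number of arrays limits the precision.

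Signals were returned to the linear scale and 4.7, the median over arrays of the lower quartile, was added before log2, which understates changes of dim genes. GEO's platform annotation gave 176 member probe sets, of which 69 passed the filter; 2 more name several genes and were not used. The brightest probe set by mean signal stood for each gene. Signals of different probe sets were set side by side to pick the brightest, apply the filter, rank members by brightness and sum markers. Differences between probe sets were not read as differences in transcript level. The fit used limma 3.58.1 in R 4.3.3 (lmFit, then eBayes with trend=TRUE), with 9.07 prior and 3 residual degrees of freedom, two-sided p-values and Benjamini-Hochberg adjustment over 11944 genes, and was tested on simulated data. Members past the threshold, the 3 brightest and the 2 with the largest change in each family are given array by array, and from the other lists those past the threshold and the 2 with the largest change. ADAMTS12, MMP24 and ADAMTS9-AS2, given array by array outside this rule, and the genes under other observations were chosen after their values were seen. So were the list members without a call, other than SPOCK1, BMP1 and PAPPA2. The members and lists were chosen with earlier results of these data known. The alternatives changed the offset, filter, scaling, time scale, spike-in covariate, probe set rule and arrays used.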

Additional observations from a re-analysis of the deposited data

How the results depend on the processing

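ADAMTS9 passed under all 14 alternatives, with fitted log2 changes from -2.49 to -1.78 and limma adjusted p from 9.59e-05 to 0.0213. ADAMTS17 and ADAMTSL1 kept a positive change under all 14 and passed in 11 each. With no filter on signal 0 members rose (limma adjusted p = 0.0900 for ADAMTS17 and 0.175 for ADAMTSL1), and in that setting all genes that rose numbered 16 and those that fell 5, with 19775 genes tested. With the spike-in covariate 1 member, 118 genes in all and 0 regulators rose, and 112 genes fell. With all probe sets of a gene averaged 1 member and 0 regulators rose. Leaving out single arrays gave 1 to 3 members that rose, 121 to 249 genes in all that rose and 69 to 167 that fell; without the 192 h array the count was 1 (TIMP2), and without the 0 h array it was 3, with ADAMTS5 added. The regulators that rose numbered 0 with no filter and 0 to 1 with single arrays left out. With a filter at 4 times the signal they also numbered 0. In that setting 9 regulators were tested, and SPOCK3, with a mean of 47.1, was not among them. Substrates and partners that rose numbered 0 with no filter and 0 to 1 with single arrays left out, and those that fell 0 with no filter and 2 to 5 with single arrays left out. The causes of the other differences between settings were not tested. No paired analysis was possible because each time point has 1 array.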

Other observations

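Some dim members had uneven signals. MMP28, also called epilysin, read 2.6, 28.7, 31.7, 16.8 and 7.3 at 0, 24, 48, 96 and 192 h, so its early induced arrays were high and the first and last low, below the filter on average; its other probe sets reached 20.7 at most. ADAM33 read 12.5, 11.4, 15.1, 49.2 and 2.0, with its highest and lowest signals on neighbouring arrays; its fitted log2 change was -0.39 over all arrays and 2.10 without the 192 h array, and it did not pass in either. ADAMTS10, a fibrillin-associated relative of ADAMTS17, read 28.2, 4.3, 19.0, 3.6 and 4.5. ADAM28, a protease of lymphoid and epithelial cells, read 22.3 at 192 h against 2.9 at 0 h in its brightest probe set, while its other 3 read 2.6, 1.7 and 1.4 at 192 h.

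The 2 tested MMP11 probe sets differed in size, with fitted log2 changes of -0.11 and -1.02, the dimmer one reading 48.5, 51.9, 51.5, 13.9 and 33.6. The 5 probe sets of ADAMTS9-AS2 had mean signals from 1.46 to 14.5.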
